A study of Mus musculus with 4 samples.

Results

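Igf1, its receptor gene Igf1r and the genes of IGF binding proteins 1 to 7 (Igfbp1 to Igfbp7) were followed in the calvaria, the roof of the skull, of E14.5 mouse embryos. These 9 genes were taken by symbol, as the set of ligand, receptor and binding proteins, from 55487 gene IDs in the deposited count table, and each matched 1 ID. Poly(A) RNA had been sequenced in 2 libraries from the frontal bone and in 2 libraries that hold both parietal and interparietal bone. The labels name no treatment or genotype, and they give neither strain, sex and litter nor the number of embryos behind a library. Whether the 2 libraries of a group are different animals or repeats of one sample is not said either. The p-values therefore reflect the scatter among these 4 libraries, possibly technical.

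Insulin-like growth factor 1 is a secreted growth factor that activates a receptor tyrosine kinase, IGF1R, and through it the PI3K-AKT and RAS-MAPK pathways. In bone it drives growth and supports the differentiation and survival of osteoblasts. Most IGF outside cells is held by IGF binding proteins, which carry it, keep it from the receptor or store it in the matrix, and which proteases cut to release it. Members 1 to 6 of that family bind IGFs tightly, and Igfbp7 encodes a relative with low affinity for them.

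Igf1 and the binding protein genes Igfbp3 and Igfbp5 fell in frontal relative to parietal-interparietal libraries, each to about the same degree. The level of Igf1 was 1.47-fold, that of Igfbp3 1.51-fold and that of Igfbp5 1.5-fold higher in the parietal-interparietal libraries. The other 6 genes, Igf1r among them, were not called. The 3 lower genes make up 33.3% of the 9, where edgeR called 12.7% of all 20947 tested genes at an adjusted p under 0.05 and 6.44% as lower in frontal libraries. By edgeR 0 of the 9 genes were higher, where 6.25% of all tested genes were. At an unadjusted edgeR p under 0.05, 0 of the 9 were higher and 4 lower, where 5668 of the 20947 tested genes passed in either direction. By DESeq2 0 of the 9 were higher and 3 lower, where 2528 genes were called in all. The median log2 fold change of the 9 genes was −0.17, against 0.01 over all tested genes. In whole tissue, fewer cells of a type and less RNA per cell cannot be told apart.

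**Figure D1:**
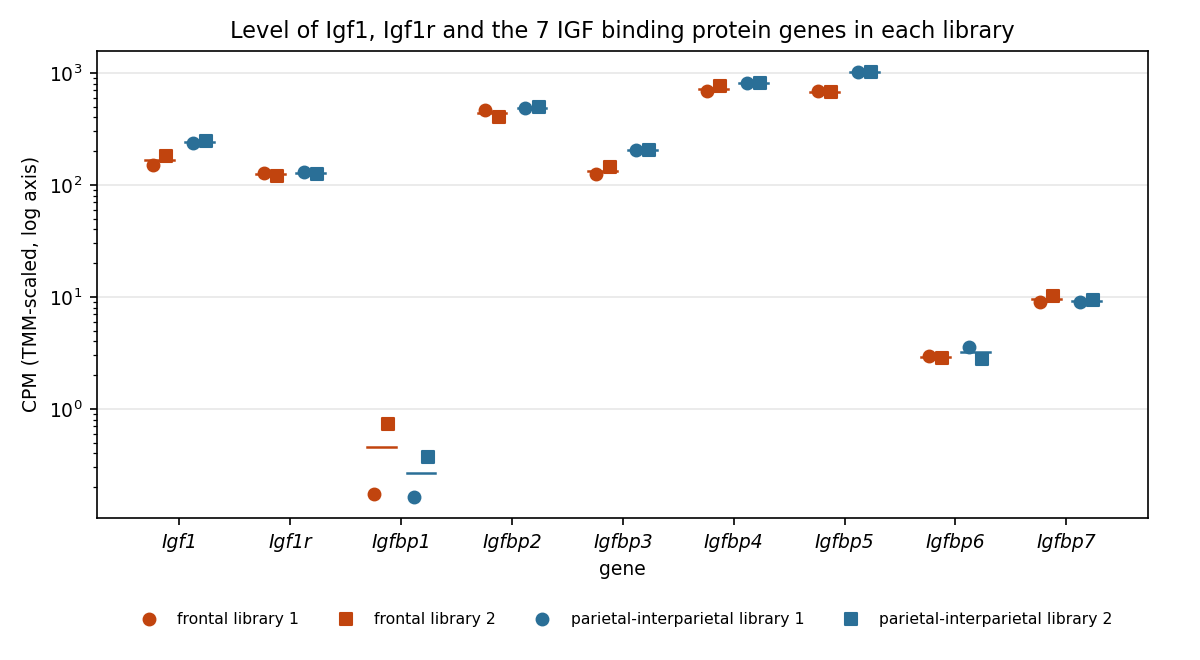
Level of each of the 9 genes in CPM (counts scaled to the TMM-adjusted library size, log axis), with 1 point per library and a bar at the mean of each pair of libraries. The frontal points of Igf1, Igfbp3 and Igfbp5 lie below both parietal-interparietal points, while those of Igf1r lie at 128 and 120 CPM against 130 and 124 CPM.

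The libraries held 29598388 and 35555013 counts in the frontal group, against 24069177 and 26645504 in the parietal-interparietal group. The osteoblast regulators Runx2 and Sp7, the defining markers of the labelled tissue, lay between 9.94 and 16.3 CPM in the 4 libraries. The late osteoblast genes Bglap and Dmp1 stayed under 1 CPM and Mepe had no count, while Ifitm5 lay between 2.76 and 5.81 CPM. Ibsp, a further osteoblast marker, stood at 81.2 and 92.4 CPM in frontal libraries, against 40.9 and 40.7 CPM in parietal-interparietal libraries. Mitochondrial ribosomal RNA summed to 9660 and 11269 CPM in frontal libraries, against 5557 and 5563 CPM in parietal-interparietal libraries.

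The promoters of Igfbp3 and Igfbp5, which fell together, are shown with that of Igfbp4, which was not called, so that they can be compared. They are the 250 bases before a RefSeq transcription start on build GRCm38.p6, written 5′ to 3′ on the strand of the gene. Capitals mark matches to any of 5 motifs, searched on both strands.
Igfbp3, chr11:7213924-7214173, minus strand: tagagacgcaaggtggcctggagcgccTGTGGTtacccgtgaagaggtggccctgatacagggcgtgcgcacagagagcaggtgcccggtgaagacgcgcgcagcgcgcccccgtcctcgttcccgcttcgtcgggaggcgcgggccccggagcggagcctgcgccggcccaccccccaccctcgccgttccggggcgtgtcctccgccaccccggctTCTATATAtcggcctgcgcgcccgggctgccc
Igfbp5, chr1:72874866-72875115, minus strand: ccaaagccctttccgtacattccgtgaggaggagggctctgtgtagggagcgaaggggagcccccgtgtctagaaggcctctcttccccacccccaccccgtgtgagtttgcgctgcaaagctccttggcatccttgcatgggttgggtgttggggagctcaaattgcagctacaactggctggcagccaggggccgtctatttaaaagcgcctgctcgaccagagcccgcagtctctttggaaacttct
Igfbp4, chr11:99040994-99041243, plus strand: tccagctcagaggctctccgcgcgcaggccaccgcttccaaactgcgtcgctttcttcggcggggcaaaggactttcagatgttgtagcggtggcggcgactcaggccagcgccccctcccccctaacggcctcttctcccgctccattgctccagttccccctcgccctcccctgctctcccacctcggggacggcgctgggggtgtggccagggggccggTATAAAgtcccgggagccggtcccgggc
The motifs were the core of the TATA box (TATANA), the GC box (GGGCGG), the CCAAT box (CCAAT), an E-box of muscle regulators (CAGCTG) and the core of the RUNX site (TGTGGT). They occurred in 22.6%, 32.7%, 33.8%, 13% and 14% of 32851 mouse promoters of this length, in that order.

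The windows of the 3 genes that fell had no motif in common among these 5. The Igf1 window lay inside an exon that GENCODE starts further upstream, so it is not printed; it held a CAGCTG and, on the other strand, a CCAAT box. The Igfbp3 window held a TGTGGT and overlapping TATANA matches. On the gene's strand TATATA began 30 bases before the start of Igfbp3 and TATAAA 28 bases before that of Igfbp4. A TATANA at 25 to 35 bases before the start was found in 2.6% of promoters. The Igfbp5 window, whose RefSeq start lies just inside the first exon of GENCODE, held none of the 5 motifs, which says only that these letters are not in it. Of the other promoters, the first listed for Igfbp2 held 3 GC boxes, that of Igf1r 2 and that of Igfbp7 4, while that of Igfbp6 held TATANA and CCAAT matches and that of Igfbp1 none of the 5 motifs.

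Igf1, the ligand (ENSMUSG00000020053, chromosome 10, 87858265 to 87937042, plus strand), had 4332 and 6355 counts in the frontal libraries, against 5812 and 6727 in the parietal-interparietal libraries. Scaled to library size these were 151 and 180 CPM in frontal libraries, against 238 and 248 CPM in parietal-interparietal libraries. The frontal pair was the more spread of the pairs, and the groups did not overlap. The mean was 166 ± 21.1 CPM in frontal libraries, against 243 ± 7.12 CPM in parietal-interparietal libraries (SD, n = 2 each). The log2 fold change of Igf1 was −0.55 ± 0.09 (SE, edgeR adjusted p = 0.00466). Without parietal-interparietal library 2 the value was −0.53, and without library 1 it was −0.58. Igf1 was no longer called without library 2 or, at −0.56, when the parietal-interparietal pair was added up to 1 sample. Such fits have fewer samples, so a lost call does not single out that library.

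Igf1r, which encodes the receptor tyrosine kinase that binds the ligand (ENSMUSG00000005533, chromosome 7, 67952827 to 68233668, plus strand), was close to level across the libraries. It stood at 128 and 120 CPM in frontal libraries, against 130 and 124 CPM in parietal-interparietal libraries, so the groups overlapped. Its log2 fold change was −0.04 ± 0.08 (SE, edgeR adjusted p = 0.831). The 95% interval of that change ran from −0.22 to 0.15. Per kilobase (kb) of merged exons, Igf1 exceeded Igf1r by 2.0 and 2.55 times in frontal libraries, against 3.1 and 3.38 times in the others. Both frontal ratios were lower, and the exact two-sided permutation test gave p = 0.333, the smallest that 2 against 2 libraries allow. All counts come from whole genes, and neither gene shares exon sequence with another annotated gene.

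Igfbp3 encodes the main carrier of IGFs in blood, where it forms a complex with the ligand and the acid-labile subunit (ENSMUSG00000020427, chromosome 11, 7206086 to 7213923, minus strand). It had 3574 and 5071 counts, or 124 and 144 CPM, in frontal libraries. The parietal-interparietal libraries had 4967 and 5513 counts, which both came to 203 CPM. Both frontal libraries were thus below the other pair, whose values nearly coincided. The log2 fold change was −0.60 ± 0.09 (SE, edgeR adjusted p = 0.00217), and leaving out any 1 library gave values between −0.72 and −0.50.

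Igfbp5 encodes the binding protein that attaches to bone matrix, and it is also made in quantity by differentiating muscle (ENSMUSG00000026185, chromosome 1, 72857932 to 72874884, minus strand). Its counts were 19821 and 23664 in frontal libraries, against 24863 and 27664 in parietal-interparietal libraries. In CPM these were 689 and 672 in frontal libraries, against 1017 and 1019 in parietal-interparietal libraries. The libraries of each group lay close together and the groups were far apart. The log2 fold change was −0.58 ± 0.07 (SE, edgeR adjusted p = 0.000496), the smallest adjusted p among the 9 genes. Leaving out any 1 library gave values between −0.60 and −0.57.

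Igfbp2 and Igfbp4, the other abundant members, had smaller differences that were not called in the 4 libraries. Igfbp2, a fetal member that is abundant in embryonic brain and choroid plexus (ENSMUSG00000039323, chromosome 1, 72824503 to 72852474, plus strand), stood at 468 and 402 CPM in frontal libraries, against 484 and 495 CPM in parietal-interparietal libraries. The groups did not overlap, though frontal library 1 was close to the parietal-interparietal pair. Its log2 fold change was −0.17 ± 0.08 (SE, edgeR adjusted p = 0.227), with a 95% interval from −0.36 to 0.02. Without frontal library 1 the log2 fold change of Igfbp2 was −0.28.

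Igfbp4 encodes a binding protein that the protease PAPP-A cuts (ENSMUSG00000017493, chromosome 11, 99041244 to 99054392, plus strand). It stood at 684 and 757 CPM in frontal libraries, against 811 and 807 CPM in parietal-interparietal libraries. Here too the groups did not overlap. The log2 fold change was −0.17 ± 0.07 (SE, edgeR adjusted p = 0.172), and its 95% interval ran from −0.33 to −0.01. The log2 fold change of Igfbp4 was −0.09 without frontal library 1 and −0.25 without frontal library 2. In all, 5 of the 9 genes had groups that did not overlap, where 57.3% of all tested genes did.

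Igfbp6, Igfbp7 and Igfbp1 had the lowest CPM of the 9 genes, not corrected for gene length. Igfbp6, whose product prefers IGF2 to IGF1 (ENSMUSG00000023046, chromosome 15, 102144362 to 102149511, plus strand), had 86 and 101 counts in frontal libraries, against 88 and 76 in parietal-interparietal libraries. These came to 2.99 and 2.87 CPM in frontal libraries, against 3.60 and 2.80 CPM in parietal-interparietal libraries, with a log2 fold change of −0.13 ± 0.30 (SE, edgeR adjusted p = 0.837). Parietal-interparietal library 1 was the highest and library 2 the lowest, so the frontal pair lay within the range of the other.

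Igfbp7, a gene of blood vessel endothelium among other cells (ENSMUSG00000036256, chromosome 5, 77349240 to 77408041, minus strand), stood at 8.97 and 10.2 CPM in frontal libraries, against 9.0 and 9.43 CPM in parietal-interparietal libraries. Its log2 fold change was 0.06 ± 0.17 (SE, edgeR adjusted p = 0.866). The gene shares 85 bases, 7.03% of its exon length, with Polr2b on the opposite strand, and since the strand setting of the counting is not given, reads there cannot be assigned with certainty.

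Igfbp1, known for its expression in liver and decidua (ENSMUSG00000020429, chromosome 11, 7197782 to 7202546, plus strand), had only 5 and 26 counts in frontal libraries, against 4 and 10 in parietal-interparietal libraries. Frontal library 2 was the highest, and the groups overlapped. The log2 fold change of 0.78 had a 95% interval from −1.26 to 2.82, so a difference was not detectable at this depth. It turned to −0.62 without frontal library 2.

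**Figure D2:**
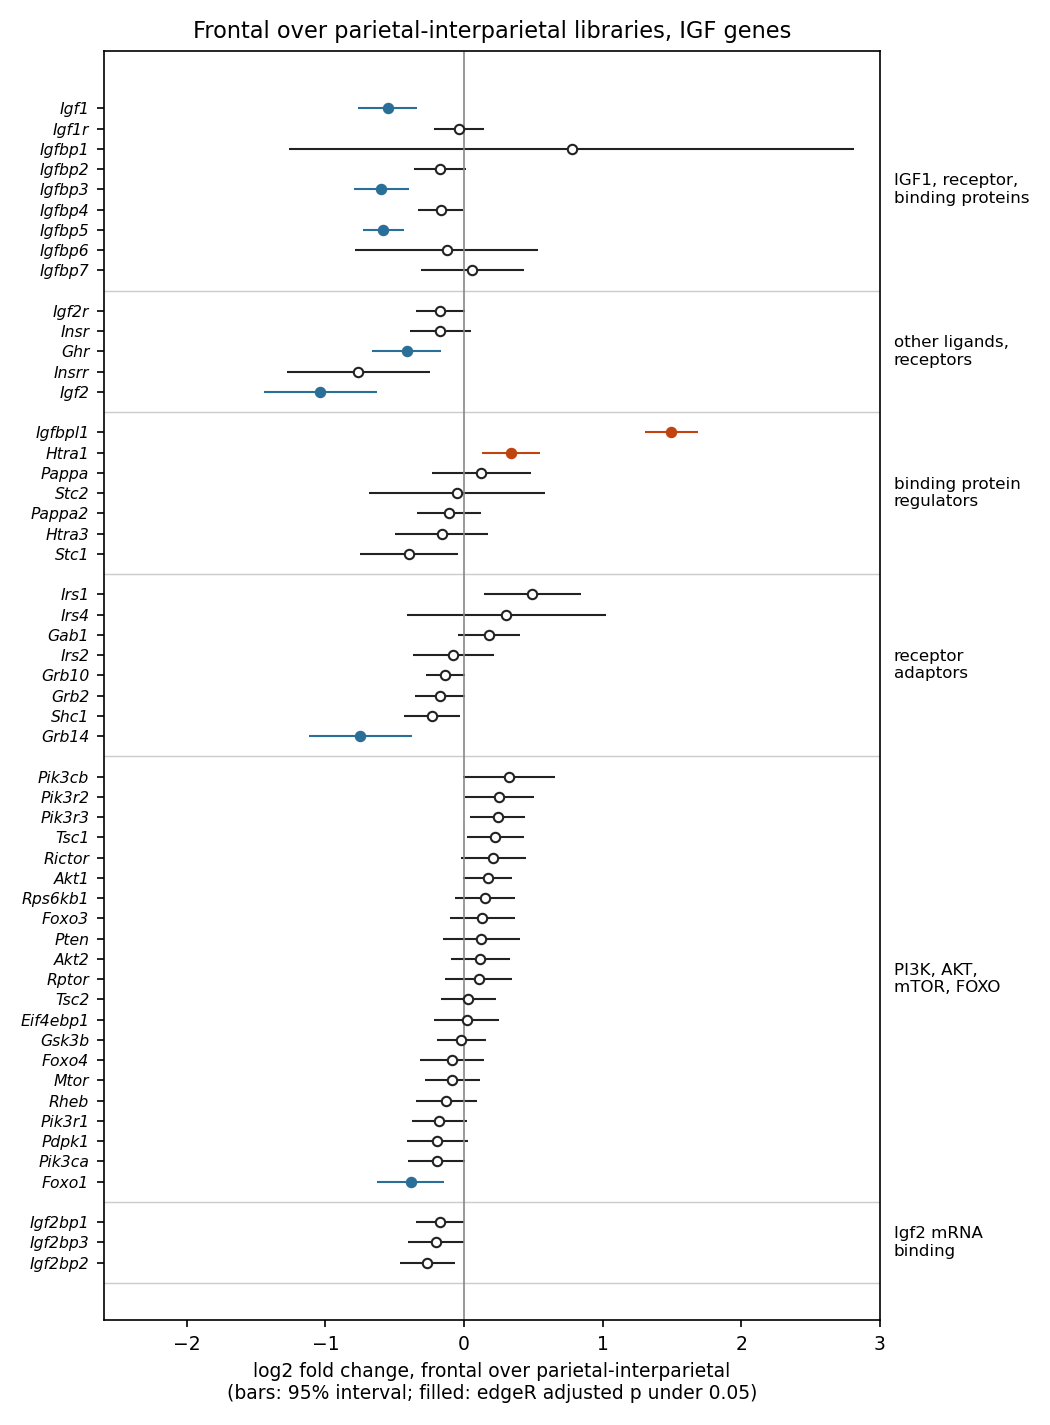
Log2 fold change of frontal over parietal-interparietal libraries with its 95% interval, for the 9 genes and for tested genes of the wider IGF pathway. Filled points passed the edgeR test, with genes higher in frontal libraries in red and lower ones in blue. Igf1, Igfbp3 and Igfbp5 lie between −0.60 and −0.55, Igfbpl1 at 1.5 and Igf2 at −1.04.

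Levels of different genes can be set side by side only per length, so CPM was divided by the kb of merged exons. On that scale Igfbp2 led in every library, with 254 and 217 CPM per kb in frontal libraries, against 262 and 268 in parietal-interparietal libraries. Igfbp4 followed with 155 and 171 in frontal libraries, against 184 and 183 CPM per kb in parietal-interparietal libraries. Igfbp5 came next with 115 and 112 CPM per kb in frontal libraries, against 169 and 170 in parietal-interparietal libraries. These 3 genes stood at places 178, 259 and 318 among 20924 tested genes by their mean level per kb. The order of these levels was the same in all 4 libraries for the first 5 genes, which end with Igfbp3 and Igf1.

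Igf1 was at 15.2 and 18.2 CPM per kb in frontal libraries, against 24 and 25 CPM per kb in parietal-interparietal libraries. Igf1r and Igfbp7 followed between 7.16 and 8.46 CPM per kb and changed places between libraries, so their order is not resolved. Igfbp6 lay between 2.52 and 3.24 CPM per kb, and Igfbp1 was last at 0.484 CPM per kb or less. With the longest transcript of each gene as its length, Igf1r took place 6 and Igfbp7 place 7, the reverse of the order with merged exons.

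The 7 binding protein genes together summed to 573 and 558 CPM per kb in frontal libraries, against 691 and 696 CPM per kb in parietal-interparietal libraries. In that sum Igfbp5 held 20.02% and 20.04% in the frontal libraries, against 24.5% and 24.4% in the parietal-interparietal libraries. Igfbp3 held 6.93% and 8.24% in frontal libraries, against 9.40% and 9.33% in parietal-interparietal libraries. Igfbp4 held 27.0% and 30.7% in frontal libraries, against 26.6% and 26.3% in parietal-interparietal libraries. Igfbp2 took 44.2% and 39.0% in frontal libraries, against 37.9% and 38.5% in parietal-interparietal libraries, and its mean share was higher in frontal libraries by 3.37 percentage points with all libraries, by 6.01 without frontal library 2 and by 0.728 without frontal library 1. These shares are descriptions of each library and were not tested.

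**Figure D3:**
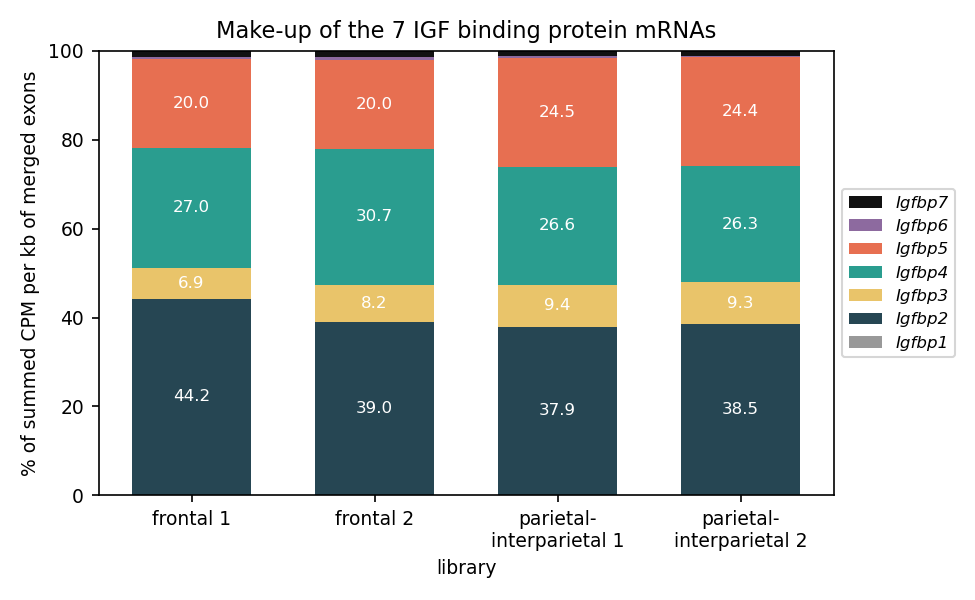
Share of each IGF binding protein gene in the summed CPM per kb of the 7, by library, stacked to 100%. The Igfbp5 block is 20.02% and 20.04% high in the frontal libraries, against 24.5% and 24.4% in the parietal-interparietal libraries, while Igfbp2 and Igfbp4 form the largest blocks in each.

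The summed level of the 7 binding protein genes was 37.7 and 30.6 times that of Igf1 in frontal libraries, against 28.8 and 27.8 times in parietal-interparietal libraries, per kb. Igfbp3 followed Igf1 closely, at 2.61 and 2.52 times its level in frontal libraries, against 2.70 and 2.59 times in parietal-interparietal libraries. Igfbp5 stood at 7.55 and 6.14 times the level of Igf1 in frontal libraries, against 7.05 and 6.78 times in parietal-interparietal libraries. In both ratios to Igf1 the groups overlapped.

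Each of the genes that fell among the binding proteins lies beside another member. Igfbp2 and Igfbp5 point towards each other on chromosome 1 with 5457 bases between their annotated ends, and Igfbp1 and Igfbp3 do so on chromosome 11 with 3539 bases between them. Per kb, Igfbp5 stood at 0.453 and 0.514 times the level of Igfbp2 in frontal libraries, against 0.646 and 0.633 times in parietal-interparietal libraries. Both frontal ratios were lower. Their exact two-sided permutation p was again 0.333, the smallest that 2 against 2 libraries allow, so this test could not have shown a difference. Igfbp1, beside Igfbp3, had too few counts for such a ratio.

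The wider IGF pathway was read from 48 genes in 5 lists, of which 45 were tested. By edgeR 3 were higher and 4 lower in frontal libraries, a share of 15.6% called against 12.7% of all tested genes. The median log2 fold change of these genes was −0.08. The number of calls depended on single libraries. It was 2, Igf2 and Igfbpl1, when either library of the parietal-interparietal pair was dropped and when the pair was summed, and 19 and 28 without frontal library 1 and frontal library 2.

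Among the other ligands and receptors, Igf2 and Ghr were lower. Igf2, the main fetal IGF ligand, stood at 66.1 and 39.4 CPM in frontal libraries, against 107 and 108 CPM in parietal-interparietal libraries. The frontal libraries differed from each other by more than those of the other group, and both were lower. The log2 fold change was −1.04 ± 0.18 (SE, edgeR adjusted p = 0.00551), with −1.45 without frontal library 1 and −0.72 without frontal library 2. In the GENCODE annotation, 62.8% of the exon length of Igf2 is shared with Gm49394 on the same strand, which had no count in any library. The treatment of reads in shared exons is not given in the sources used here, so the level of Igf2 is uncertain and is not compared with that of Igf1.

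Ghr, which encodes the growth hormone receptor, stood at 28.3 and 31.7 CPM in frontal libraries, against 42.4 and 37.7 CPM in parietal-interparietal libraries (change −0.42 ± 0.11 SE on the log2 scale, edgeR adjusted p = 0.0364). Igf2r, the receptor that takes up IGF2 for breakdown, stood at 319 and 286 CPM in frontal libraries, against 337 and 344 CPM in parietal-interparietal libraries and was not called (adjusted p = 0.196). The insulin genes Ins1 and Ins2 did not pass the filter: Ins1 had no count, and Ins2 had 2 and 6 counts in frontal libraries and 0 in both others.

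In the list of binding protein proteases and related genes, Igfbpl1 and Htra1 were higher in frontal libraries. Igfbpl1, an IGF binding protein-like gene of developing neurons, stood at 130 and 125 CPM in frontal libraries, against 44.4 and 45.9 CPM in parietal-interparietal libraries, a 2.82-fold difference. Its log2 fold change was 1.5 ± 0.09 (SE, edgeR adjusted p = 5.44e-06), opposite in direction to Igfbp3 and Igfbp5. Beside it, 6 of 10 forebrain and neural markers were higher and 1, the neuronal gene Stmn2, was lower (change −0.33 on the log2 scale, edgeR adjusted p = 0.0257), and all 7 sensory ganglion markers were lower, where 12.7% of all tested genes were called. Htra1, a serine protease that can cut IGF binding proteins, stood at 52.9 and 51.2 CPM in frontal libraries, against 42.1 and 40.2 CPM in parietal-interparietal libraries (change 0.34 on the log2 scale, edgeR adjusted p = 0.0412). Its call was lost when only the total count was used for scaling, in DESeq2, and without either parietal-interparietal library. The PAPP-A genes Pappa and Pappa2 and their inhibitors Stc1 and Stc2 were not called, with log2 fold changes between −0.40 and 0.12. Igfals, which encodes the acid-labile subunit, had between 0 and 8 counts per library and was not tested.

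Inside the cell, 12.5% of the receptor adaptors were called, against 12.7% of all tested genes. Of 8 receptor adaptors, Grb14, which binds and inhibits insulin receptors, was lower, at 7.27 and 9.06 CPM in frontal libraries, against 14.3 and 13.3 CPM in parietal-interparietal libraries (change −0.75 on the log2 scale, edgeR adjusted p = 0.016). Its relative Grb10, the most abundant adaptor of the list by CPM, stood at 912 ± 17.2 CPM in frontal libraries, against 1001 ± 5.47 CPM in parietal-interparietal libraries (SD, n = 2 each) and was not called (edgeR adjusted p = 0.217). Grb2, which links receptors to RAS, was not called either (change −0.17 on the log2 scale, adjusted p = 0.201). Irs1, a main substrate of the receptor, had a log2 fold change of 0.49 and an edgeR adjusted p = 0.0679.

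Of 22 genes of the PI3K, AKT, mTOR and FOXO branch, the transcription factor gene Foxo1, whose product AKT holds out of the nucleus, was lower. Foxo1 stood at 29.8 and 30.4 CPM in frontal libraries, against 41.9 and 36.7 CPM in parietal-interparietal libraries (change −0.38 on the log2 scale, edgeR adjusted p = 0.0442). The calls of Ghr, Grb14 and Foxo1 were lost when either library of the parietal-interparietal pair was dropped. The most abundant genes of this branch by CPM, Akt1 and Gsk3b, had log2 fold changes of 0.17 and −0.02 and were not called. Of the 3 Igf2 mRNA binding protein genes 0 were called by edgeR and 0 by DESeq2. At an unadjusted edgeR p under 0.05, 2 were lower, where 5668 of the 20947 tested genes passed in either direction. The log2 fold changes of the 3 genes lay between −0.27 and −0.17. The first was that of Igf2bp2 and the second that of Igf2bp1, the most abundant of the 3 by CPM.

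Markers of neighbouring tissues moved with the groups, and their part in the differences of the IGF genes was not tested. Of 12 skeletal muscle markers 9 were lower, where edgeR called 6.44% of all tested genes as lower. The muscle markers summed to 1602 and 1530 CPM in frontal libraries, against 2100 and 2080 CPM in parietal-interparietal libraries. The median log2 fold change of these muscle genes was −0.58, but single genes ran from −1.74 to −0.16. Igf1 stood at −0.55, Igfbp3 at −0.60 and Igfbp5 at −0.58. Of 9 meningeal markers 5 were lower, with a median of −0.56 and sums of 588 and 605 CPM in frontal libraries, against 924 and 916 CPM in parietal-interparietal libraries. All 7 sensory ganglion markers were lower, with sums of 188 and 194 CPM in frontal libraries, against 410 and 424 CPM in parietal-interparietal libraries.

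Many markers of the brain side went the other way. Of 10 forebrain and neural markers 6 were higher and 1 lower, where edgeR called 6.25% of all tested genes higher and 6.44% lower. The forebrain and neural markers summed to 957 and 919 CPM in frontal libraries, against 723 and 733 CPM in parietal-interparietal libraries. Of 6 choroid plexus markers 3 were higher, with sums of 836 and 886 CPM in frontal libraries, against 80.2 and 82.2 CPM in parietal-interparietal libraries. Ttr, the defining choroid plexus gene, made up 748 and 778 CPM in frontal libraries, against 29.6 and 25.7 CPM in parietal-interparietal libraries. Igfbp2, which that tissue is known to express, was at 468 and 402 CPM in frontal libraries, against 484 and 495 CPM in parietal-interparietal libraries. Of 9 endothelial markers, which bear on Igfbp3 and Igfbp7, 1 was higher and 1 lower, with a median of −0.15 and sums of 437 and 444 CPM in frontal libraries, against 519 and 506 CPM in parietal-interparietal libraries.

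In the remaining lists between 14.3% and 50% of the tested markers were called, against 12.7% of all tested genes. Of 5 pericyte markers 1 was lower, with sums of 147 and 138 CPM in frontal libraries, against 166 and 168 CPM in parietal-interparietal libraries. Of 9 tested osteoblast markers 1, Ibsp, was higher (change 1.09 on the log2 scale, edgeR adjusted p = 0.000118) and 1, Col1a1, was lower. The osteoblast sums were 1133 and 1123 CPM in frontal libraries, against 1582 and 1590 CPM in parietal-interparietal libraries, most of it Col1a1. The median log2 fold change of these 9 genes was 0.41, opposite in sign to the difference of the sums, and 3 of the 9 were negative. Of 9 cartilage markers 2 were lower, and the sums were 410 and 405 CPM in frontal libraries, against 531 and 508 CPM in parietal-interparietal libraries. Of 7 epidermal markers 1 was lower, with sums of 738 and 698 CPM in frontal libraries, against 779.6 and 775 CPM in parietal-interparietal libraries. Of 6 macrophage markers 1 was lower, with sums of 138 and 131 CPM in frontal libraries, against 156 and 164 CPM in parietal-interparietal libraries. Of 6 red cell markers 3 were lower, and frontal library 2 stood apart, with sums of 5029.8 and 3050.2 CPM in frontal libraries, against 6049.6 and 5943 CPM in parietal-interparietal libraries. Of all the marker genes only Mepe was at 0 in every library.

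**Figure D4:**
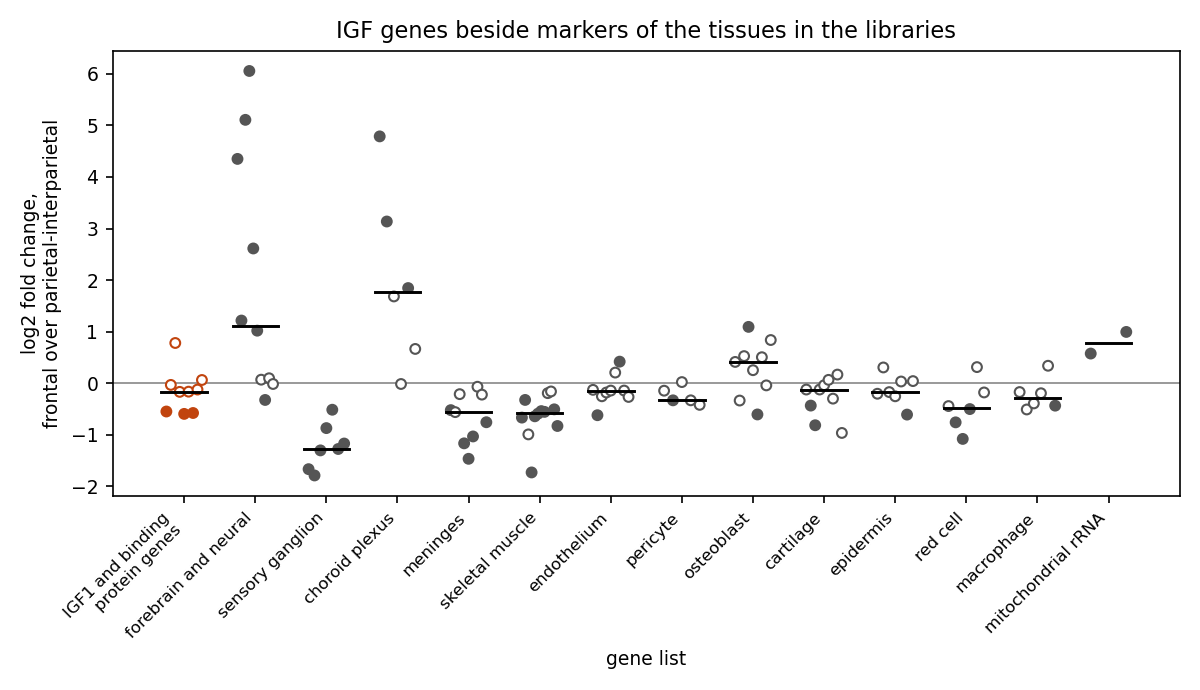
Log2 fold change of frontal over parietal-interparietal libraries for the 9 IGF genes (red) and for marker genes of tissues that the libraries could hold (grey), with a bar at each list's median. Filled points passed the edgeR test. The medians are −0.17 for the IGF genes, −0.58 for skeletal muscle, −0.56 for meninges, −0.15 for endothelium and 1.76 for choroid plexus.

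The genes whose pattern over the 4 libraries was most like that of Igf1 were Magel2, Pdpn and Snhg8, by the root mean square difference of log2 CPM after each gene was centred on its mean. The differences were 0.0115, 0.0183 and 0.0195 log2 units, among 10056 genes that averaged 10 CPM or more. Pdpn, which encodes podoplanin, stood at 127 and 148 CPM in frontal libraries, against 196 and 202 CPM in parietal-interparietal libraries, the same order of libraries as Igf1. Those most like Igfbp3, the called gene with the largest absolute log2 fold change, were Fam210a, Rpl39 and Itpr3, at 0.0083, 0.0159 and 0.0187 log2 units. With 4 libraries many genes can have nearly the same pattern, so these names are a description only.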

How the data were processed

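The deposited values were raw counts, 1 whole number per gene and library. The authors' tools, per the submitters' processing notes, included featureCounts 2.0.1, HISAT2 2.1.0 and Trim Galore 0.6.7, and the build was GRCm38. Strand setting, annotation release and the treatment of shared or repeated sequence were not given in the sources used here. Even values made up 68.3% to 74.4% of counts from 1 to 20, so the counts were also analysed halved.

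Of the IDs, 55227 matched GENCODE M21 (GRCm38). Genes were filtered with filterByExpr (minimum count 10), scaled by TMM and tested two-sided, frontal minus parietal-interparietal, with edgeR 4.0.16 in R 4.3.3 by the quasi-likelihood test, with a model of group alone (residual degrees of freedom: 2). Benjamini-Hochberg adjustment ran over the 20947 tested genes, and genes under 0.05 were called. Intervals are 95%. CPM uses TMM-scaled library sizes. DESeq2 1.42.0 was an alternative. The procedure was tested on data simulated from the means and spread of these libraries, which cannot show whether the libraries are true replicates.

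The counts of the libraries within a group differed by 23.9 times (frontal) and 3.35 times (parietal-interparietal) the variance of binomial sampling, or 13.2 and 1.71 times with the counts halved. A value of 1 is sampling noise alone, so the parietal-interparietal pair lay nearer to it. Each library was entered as 1 sample, and that pair was also summed as an alternative. A count of 3 equals 0.0852 to 0.123 CPM, which covers counting error only. Promoters came from RefSeq (GRCm38.p6), which matched all 9 genes, and bases after the start were left out. Members and lists were chosen with earlier results of these data known. The text names all 9 members, called pathway genes (values of 1 are not reported here), the 2 most abundant of each pathway list and the 3 genes most like Igf1 and the called member with the largest change. The pathway genes Irs1, Pappa, Pappa2, Stc1, Stc2 and the untested genes were named after their values were seen. Figures were drawn with matplotlib 3.10.9.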

Additional observations from a re-analysis of the deposited data

How the results depend on the processing

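Over 12 alternatives, Igfbp3 and Igfbp5 kept their direction in each, and they were also called in each. Without a frontal library, though, the spread came from the parietal-interparietal pair alone, which lay nearer to sampling noise, so those calls add little. Igf1 kept its direction, at −0.70 to −0.43 with 1 library left out, and was no longer called when parietal-interparietal library 2 was dropped or, at −0.56, when that pair was summed. With 1 library left out Igfbp2 ranged from −0.28 to −0.0736, Igfbp4 from −0.25 to −0.0948, Igfbp1 from −0.62 to 1.47, Igfbp6 from −0.30 to 0.0628 and Igfbp7 from −0.0488 to 0.15. Igfbp1 was not tested with counts halved or with a minimum count of 50.

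Where a group was left with 1 library, it was assumed to vary like the other group. With 1 library left out the number of the 9 genes called ranged from 2 to 5, the pathway genes called higher from 1 to 14 and lower from 1 to 14, and all genes called from 865 to 7279. With the pair summed, 1 pathway gene was higher and 1 lower, and 791 genes were called in all. Scaled by total count alone, 1 pathway gene was called higher. By longest transcript Igf1r took place 6 and Igfbp7 place 7. Without division by length the share of Igfbp5 differed by −5.89 percentage points and that of Igfbp7 by 0.12, frontal minus parietal-interparietal. The cause of these shifts was not tested. The fits that leave out or sum libraries also have fewer samples.

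Same-numbered libraries did not deviate together (correlation 0.0084 across 16789 genes), so the numbers were not taken as pairs. With the replicate number as a block, the same 3 of the 9 genes were called, 9 pathway genes and 3306 genes in all. With 2 libraries a group, genes of few counts such as Igfbp1 and Igfbp6 have wide intervals.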
